A study of Mus musculus with 24 samples.

Results

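Counts were examined for 6 genes of 24079 in the table that encode G-protein coupled receptors of the reward circuit. They were chosen by name and function, with earlier results of these data known: Oprm1, Oprk1 and Oprd1 for the mu, kappa and delta opioid receptors, Oprl1 for the nociceptin receptor, Cnr1 for the cannabinoid receptor CB1, and Drd3 for the dopamine D3 receptor. The study sequenced RNA from 2 brain regions, the dorsal striatum (DS) and the nucleus accumbens (Acb), of rpS6 knockin mice, in which all phosphorylated serines of ribosomal protein S6 are replaced by alanine in every cell, and of wild-type littermates. Part of each lysate was kept whole, and the rest was spun through a sucrose gradient to collect the heavy polysomal fractions, which hold mRNAs carrying several ribosomes. This gave 8 groups of 3 libraries, 24 in all: wild-type and knockin, Acb and DS, whole lysate and heavy fraction. Both genotypes shared a mixed C57Bl/6/Sv129/ICR background, came from heterozygous crosses and included males and females, and their tissue was pooled over several mice within each library. The age of the mice used for sequencing is not given in the sources used here. The knockin replaces codons, so a count per gene cannot check it.

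All 6 receptors couple to inhibitory Gi or Go proteins: when a ligand binds, adenylyl cyclase activity falls, inwardly rectifying potassium channels open and presynaptic calcium channels are restrained. Medium spiny neurons, the principal GABAergic cells of the striatum, make the enkephalin and dynorphin peptides that bind the opioid receptors, and they also make endocannabinoids that act back on CB1 in axon terminals. Opioids, cannabinoids and dopamine D3 ligands all change reward-seeking behaviour through these regions.

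The receptors share a short stretch at the inner end of a membrane helix, the aspartate-arginine-tyrosine triplet that takes part in coupling to G proteins. It is shown here because it marks the common fold and shows how far the gene sequences differ around it. Each run holds the 9 bases of the triplet in capitals with 15 coding bases on either side, read from GENCODE M21 transcripts:
Oprm1: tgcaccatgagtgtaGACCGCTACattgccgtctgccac
Oprk1: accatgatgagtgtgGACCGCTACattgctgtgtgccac
Oprd1: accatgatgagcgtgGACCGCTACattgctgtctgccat
Oprl1: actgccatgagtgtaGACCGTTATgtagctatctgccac
Cnr1: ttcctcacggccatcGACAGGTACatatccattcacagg
Drd3: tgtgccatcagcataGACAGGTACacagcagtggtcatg

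Over the aligned bases of their coding sequences, with gaps left out, the 4 opioid-family genes were 61.9% to 70.4% identical to one another. Every pair that involved Cnr1 or Drd3 was 52.8% to 58.2% identical by the same measure. The longest run shared by any pair was 25 bases, between Oprk1 and Oprl1, shorter than a 50-base read. Oprm1 lies at chr10:6758593-7038209 (GRCm38.p6, the assembly also called mm10) and overlaps Ipcef1 on the opposite strand. Oprk1 lies at chr1:5588450-5606134, Oprd1 at chr4:132110188-132144486 around a transfer RNA gene, and Oprl1 at chr2:181715000-181720985. Cnr1 lies at chr4:33923171-33948831 and Drd3 at chr16:43754015-43825982. The values below are reads over all exons of a gene, so they do not separate splice forms or untranslated parts.

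The libraries held between 9280589 and 34703044 reads assigned to genes (median 16678553), with heavy fractions the deeper of both kinds of RNA (median 19862908 against 14889586.5). Bc1, a neuronal non-coding RNA, took 15.2% to 26.1% of lysate reads and 0.897% to 3.85% of heavy fraction reads. Levels are given as CPM, reads relative to the TMM-scaled library size, ± the SD over libraries. At these depths Cnr1 had 702 to 15039 reads per library, Oprk1 267 to 1607, Oprl1 241 to 1767 and Oprd1 36 to 409. Oprm1 had 0 to 57 reads and was at 0 in 5 of 24 libraries, and Drd3 had 0 to 73 reads and was at 0 in 6 of 24. A count of 0 allows up to 3 reads, or 0.124 to 0.367 CPM in these libraries, and this limit covers counting error only.

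**Figure D1:**
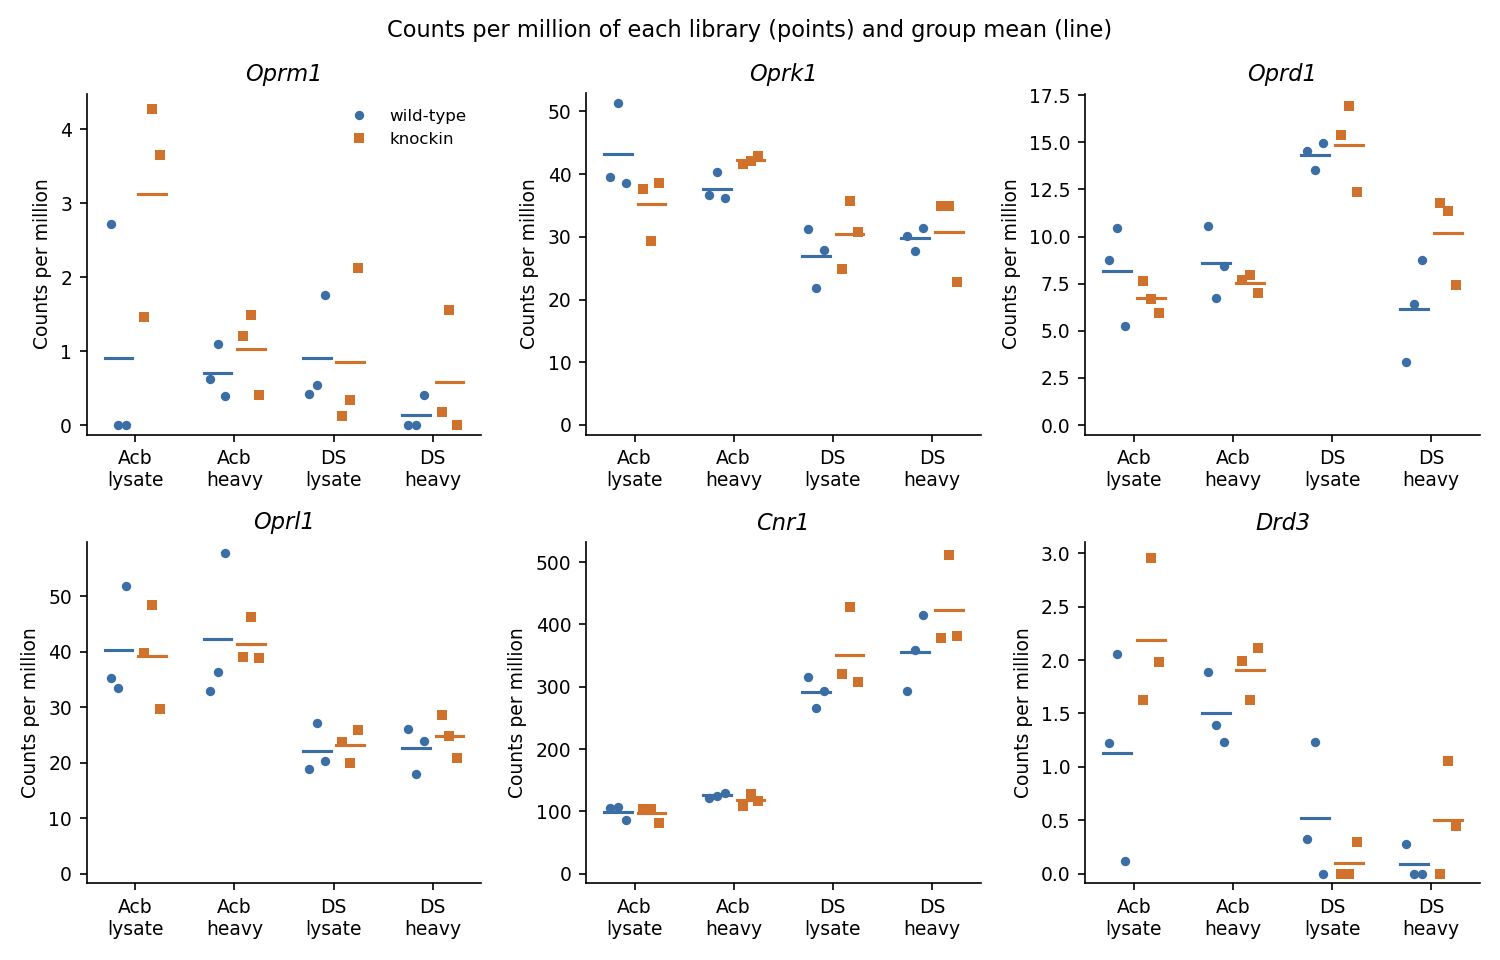
CPM (vertical axis) of each receptor gene in the 24 libraries, by region and kind of RNA, with wild-type libraries as circles, knockin libraries as squares and the mean of each group of 3 as a line. Cnr1 was higher in every DS library than in any Acb library, Oprl1 was lower in every DS library, and Oprm1 and Drd3 reached at most 4.27 and 2.96 CPM.

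Cnr1 had the highest level of the 6 in both regions. Scaled per kilobase of the longest annotated transcript, whole lysates of the Acb held Cnr1 at 16.9 CPM per kb, Oprl1 at 12.8 and Oprk1 at 8.38, followed by Oprd1 at 1.85, Drd3 at 0.970 and Oprm1 at 0.833. In DS lysates Cnr1 stood at 55.4 CPM per kb, Oprl1 at 7.29, Oprk1 at 6.14, Oprd1 at 3.64, Oprm1 at 0.366 and Drd3 at 0.180. The first ranks were the same with the summed exons of each gene as the length, whereas in the DS Oprd1 then passed Oprk1 and Drd3 passed Oprm1. The order of the last 2 genes rests on few reads in either region.

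The first comparison asked how the receptors differ between the Acb and the DS, with 6 libraries of each region per kind of RNA and genotype as a covariate in the edgeR quasi-likelihood fit. In whole lysates 4 of 6 receptors passed the test (adjusted p under 0.05 after Benjamini-Hochberg adjustment over all genes), against 19.3% of all genes tested. Cnr1 and Oprd1 were lower in the Acb, and Oprl1 and Oprk1 were higher there. In heavy fractions 4 of 6 passed, against 19.8% of all genes tested: Cnr1 lower in the Acb, and Oprl1, Oprk1 and Drd3 higher. The libraries of both regions did not overlap for 3 of 6 receptors in lysates (10.0% of all genes) and for 4 of 6 in heavy fractions (8.42%). The tissue is bulk, so fewer cells of a type and less RNA per cell cannot be told apart.

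Cnr1 encodes CB1, the most abundant cannabinoid receptor of the brain. Acb lysates held 106, 107 and 85.8 CPM in wild-type mice and 104, 105 and 81.7 CPM in knockin mice. DS lysates held 315, 267 and 293 CPM in wild-type mice and 320, 428 and 308 CPM in knockin mice. All DS libraries thus lay above all Acb libraries, with means of 322 ± 55.4 against 98.2 ± 11.3 CPM (n = 6 each). The fitted DS level was 3.26-fold that of the Acb (log2 fold change of Acb over DS −1.70, SE 0.0916, adjusted p = 3.52e-22). Heavy fractions gave nearly the same ratio: 121, 125 and 130 CPM in wild-type Acb and 109, 128 and 116 in knockin Acb, against 293, 359 and 415 in wild-type DS and 378, 511 and 382 in knockin DS. The regions again did not overlap (log2 fold change −1.66, SE 0.127, adjusted p = 3.23e-09).

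As markers of cortical tissue, 7 genes of cortical excitatory neurons were followed, among them Slc17a7. Their summed level was 706 to 939.8 CPM in DS lysates and 81.7 to 209 CPM in Acb lysates. In both kinds of RNA 6 of 7 were lower in the Acb, where 19.3% (lysates) and 19.8% (heavy fractions) of all genes tested were called. The part of these cells in the regional difference of Cnr1 was not tested. Markers of medium spiny neurons summed to 3361 to 3809 CPM in Acb lysates and 3412 to 3792 CPM in DS lysates, ranges that overlap, while of these 8 genes 3 were higher and 4 lower in the Acb.

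Oprl1, the receptor for nociceptin, ran the other way. Wild-type libraries held 35.3, 33.5 and 51.9 CPM in Acb lysates and 18.8, 27.1 and 20.3 CPM in DS lysates. Knockin libraries held 39.8, 48.4 and 29.6 CPM in Acb lysates and 23.7, 20.0 and 25.9 CPM in DS lysates. The lowest Acb lysate, at 29.6 CPM, stood above the highest DS lysate, at 27.1 CPM. The Acb level was 1.75-fold that of the DS in lysates (log2 fold change 0.81, SE 0.152, adjusted p = 3.40e-05). In heavy fractions the Acb held 32.9 to 57.8 CPM (median 39.0) and the DS 17.9 to 28.6 CPM (median 24.4), a 1.78-fold difference with no overlap (log2 fold change 0.83, SE 0.158, adjusted p = 0.000564).

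Oprk1, the dynorphin receptor, was also higher in the Acb, by less. Lysates of the Acb held 39.5, 51.4 and 38.6 CPM in wild-type mice and 37.7, 29.2 and 38.6 CPM in knockin mice. Lysates of the DS held 31.2, 21.9 and 27.8 CPM in wild-type mice and 24.9, 35.7 and 30.8 CPM in knockin mice. Both regions overlapped in lysates through 1 Acb knockin library at 29.2 CPM, below 3 of 6 DS libraries. The fitted difference was 1.36-fold (log2 fold change 0.44, SE 0.145, adjusted p = 0.0220). Heavy fractions did not overlap, with 36.1 to 42.9 CPM (median 41.0) in the Acb and 22.7 to 34.9 CPM (median 30.8) in the DS (log2 fold change 0.41, SE 0.132, adjusted p = 0.0318).

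This smaller difference of Oprk1 depended on single libraries. In lysates the call was lost without Acb wild-type replicate 2 (adjusted p = 0.110), DS wild-type replicate 2 (0.104) or DS knockin replicate 1 (0.0559), over a range of 0.00684 to 0.667 in all alternatives tried. In heavy fractions it was lost without Acb wild-type replicate 2 (adjusted p = 0.0698), Acb knockin replicate 1 (0.0542), Acb knockin replicate 2 (0.0650) or DS knockin replicate 3 (0.0708), over a range of 0.0158 to 0.223. It also fell short in heavy fractions once a trend on transcript length was removed (log2 fold change 0.24). In lysates the log2 fold change was 0.67 within wild-type mice and 0.20 within knockin mice.

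Oprd1, whose receptor binds enkephalins, differed between the regions in lysates. Acb lysates held 8.77, 10.4 and 5.25 CPM in wild-type mice and 7.63, 6.68 and 5.94 CPM in knockin mice. DS lysates held 14.6, 13.5 and 14.96 CPM in wild-type mice and 15.4, 16.9 and 12.4 CPM in knockin mice. The regions did not overlap, and the DS level was 1.96-fold that of the Acb (log2 fold change of Acb over DS −0.97, SE 0.231, adjusted p = 0.00116). Within wild-type mice alone the log2 fold change was −0.81 and no longer passed (adjusted p = 0.0857, range over alternatives 0.000120 to 0.0857). In heavy fractions Oprd1 held 8.08 ± 1.37 CPM in the Acb and 8.17 ± 3.18 CPM in the DS (log2 fold change 0.02, 95% interval −0.50 to 0.54, adjusted p = 0.964). Cholinergic interneurons are a known site of delta receptor expression. Their 5 markers summed to 69.6 to 86.0 CPM in Acb lysates and 32.4 to 46.1 CPM in DS lysates. Of these, 2 were called higher in the Acb, where 19.3% of all genes tested were called. Chat did not pass (log2 fold change 0.52, edgeR adjusted p = 0.102). Of 6 markers of GABAergic interneurons 2 were higher and 3 lower in Acb lysates. Of 7 cortical markers 0 were higher and 6 lower. The part of these cells in the level of Oprd1 was not tested.

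Drd3 was close to the limit of these libraries. In Acb lysates it had 22, 25 and 1 reads in wild-type mice and 20, 27 and 19 in knockin mice, and in DS lysates 6, 18 and 0 in wild-type mice and 0, 0 and 5 in knockin mice. Acb heavy fractions had 73, 28 and 34 reads in wild-type mice and 33, 62 and 42 in knockin mice, against 3, 0 and 0 in wild-type DS and 0, 31 and 10 in knockin DS. The D3 receptor is best known from the ventral striatum, and in heavy fractions every Acb library was above every DS library in CPM. Mean levels there were 1.71 ± 0.348 CPM in the Acb and 0.296 ± 0.414 CPM in the DS, a fitted difference of 7.08-fold (log2 fold change 2.82, SE 0.889, 95% interval 0.98 to 4.67, adjusted p = 0.0275). With 3 of 6 DS libraries at 0, that fold is loosely determined.

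Leaving out Acb knockin replicate 1 (adjusted p = 0.0528) or DS wild-type replicate 3 (0.0556) ended the call of Drd3 in heavy fractions, within a range of 0.00228 to 0.189 over all alternatives. In lysates the log2 fold change was 2.62 with an interval of 0.20 to 5.04, and the gene did not pass (adjusted p = 0.131). There it passed by the DESeq2 Wald test (adjusted p = 0.0377) and without DS wild-type replicate 2 (0.0416), in a range of 0.0377 to 0.763. Calb2, Prox1, Grp and Oxtr, taken as markers of the olfactory tubercle, the islands of Calleja and other ventral neighbours, summed to 40.0 to 69.5 CPM in Acb lysates and 13.02 to 17.1 CPM in DS lysates. Of these 4 genes Calb2 was higher in the Acb in both kinds of RNA, Grp was lower there in heavy fractions (log2 fold change −2.05, adjusted p = 0.0106), and neither Prox1 nor Oxtr passed. The sum rests mostly on Calb2, with 281 reads on average in lysates against 63.3 for Oxtr, the next. Calb2 encodes calretinin, which the authors used as a marker of striatal interneurons. Markers of the septum and basal forebrain were likewise at 43.6 to 88.1 CPM against 26.0 to 37.1 CPM. The part of neighbouring tissue in the levels of Drd3 and Oprl1 was not tested.

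Oprm1, the receptor through which morphine acts, could not be ranked between the regions at this depth. Acb lysates had 49, 0 and 0 reads in wild-type mice and 18, 39 and 35 in knockin mice, and DS lysates had 8, 8 and 21 in wild-type mice and 2, 5 and 36 in knockin mice. Acb heavy fractions had 24, 22 and 11 reads in wild-type mice and 20, 57 and 8 in knockin mice, against 0, 0 and 10 in wild-type DS and 3, 46 and 0 in knockin DS. High and low libraries stood side by side within most groups. The log2 fold change of Acb over DS was 0.96 in lysates (95% interval −0.92 to 2.84, adjusted p = 0.563) and 1.44 in heavy fractions (−0.70 to 3.58, adjusted p = 0.363). Ipcef1, on the other strand of the same locus, had 24984 reads over all libraries, and the authors counted by strand.

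**Figure D2:**
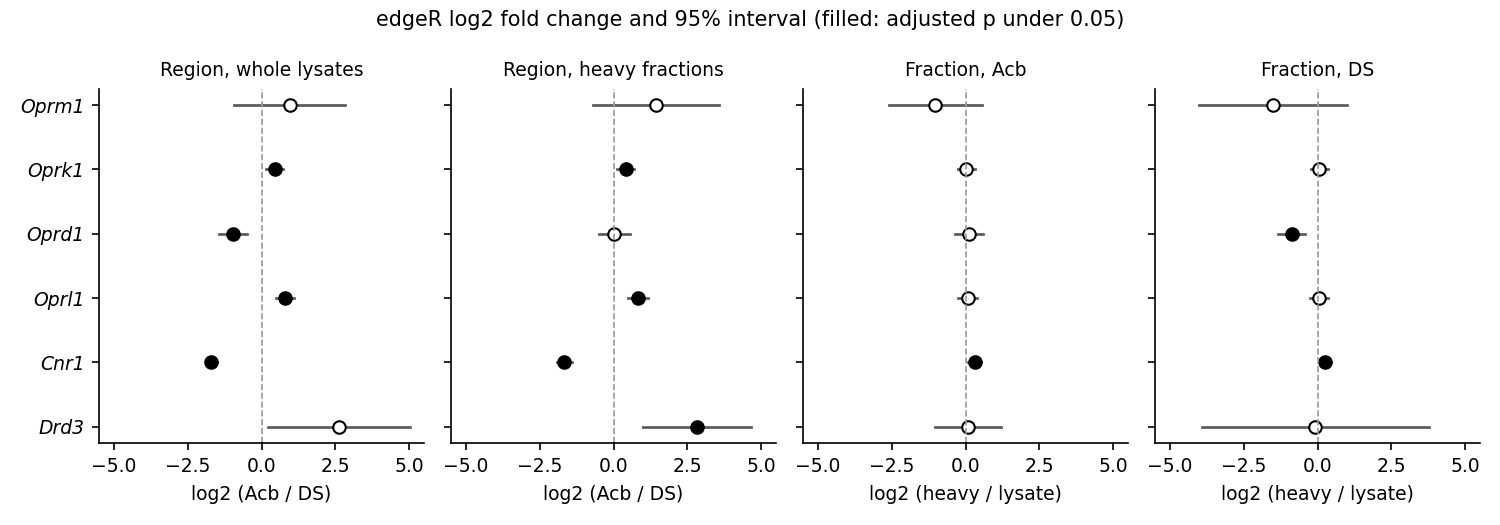
Log2 fold changes (points) with 95% intervals (lines) of the 6 receptor genes for Acb over DS in lysates and heavy fractions and for heavy fraction over lysate in the Acb and the DS, 12 libraries per panel, with filled points for an adjusted p under 0.05. The regional difference of Cnr1 was −1.70 in lysates and −1.66 in heavy fractions. Oprd1 gave −0.88 for heavy fraction over lysate in the DS and 0.11 in the Acb. The direct test of the difference between these Oprd1 values did not pass (edgeR adjusted p = 0.101).

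The ligands of these receptors were followed in the same fits, in a list of 12 genes for opioid peptide precursors and endocannabinoid enzymes. In lysates 4 were higher and 3 lower in the Acb, and in heavy fractions 4 were higher and 2 lower, where 19.3% and 19.8% of all genes tested were called. The median of the 12 log2 fold changes was 0.07 and 0.04. Pdyn, the precursor of dynorphin, the ligand of the Oprk1 receptor, was 4.11-fold higher in Acb lysates (log2 fold change 2.04, SE 0.0912). Pnoc, the precursor of nociceptin, was 3.28-fold higher there, at 12.7 ± 4.21 against 3.94 ± 1.65 CPM, in the same direction as its receptor gene Oprl1. Penk, the enkephalin precursor, was 1.68-fold higher in Acb lysates, while Oprd1 was lower there. Faah, which breaks down anandamide, was 2.42-fold lower in Acb lysates, Napepld, which makes it, 1.84-fold lower, and Dagla, which makes 2-arachidonoylglycerol, 1.47-fold lower, in the same direction as Cnr1. In heavy fractions Faah was 1.56-fold lower, and Napepld and Dagla did not pass.

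Of 24 genes for Gi and Go subunits, their regulators and effectors, 1 was higher and 10 were lower in Acb lysates, and 5 were higher and 7 lower in heavy fractions. Over all genes tested 19.3% and 19.8% were called. The list's median log2 fold change was −0.26 in lysates and −0.16 in heavy fractions, beside 0.01 and 0.02 over all genes. Kcnj6 and Kcnj3, subunits of the potassium channel that Gi-coupled receptors open, were 4.09-fold and 2.54-fold lower in Acb lysates, and Rgs4, which speeds the end of Gi signals, was 2.53-fold lower. Kcnj5, another subunit of these channels, went the other way in heavy fractions and was not called higher in lysates. The Acb level in heavy fractions was 8.57-fold that of the DS (log2 fold change 3.10, SE 0.534, edgeR adjusted p = 0.000216). DS heavy fractions had 2, 0 and 26 Kcnj5 reads in wild-type and 4, 44 and 12 in knockin mice, so that fold is loosely determined. Gnai2, a Gi alpha subunit, was 1.60-fold higher in Acb lysates. Among other receptors of the same ligands or transmitter, Drd2 was 1.29-fold lower and Drd1a 1.16-fold higher in Acb lysates, and the remaining 5 tested did not pass.

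The second comparison set heavy polysomal fractions against whole lysates within each region, which asks whether a receptor mRNA is over- or under-represented on large polysomes. In the Acb 1 of 6 receptors passed, against 29.8% of all genes tested, and in the DS 2 of 6 passed, against 37.0%. Libraries did not overlap for 1 of 6 receptors in each region, where 14.0% of all genes in the Acb and 19.5% in the DS did not.

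Oprd1 was under-represented in heavy fractions of the DS. Its heavy fractions held 3.34, 6.43 and 8.73 CPM in wild-type mice and 11.8, 11.3 and 7.41 CPM in knockin mice, and every one of them was below every DS lysate. Heavy and lysate libraries of the same number were taken to share a lysate. Without overlap any pairing puts the ratio of heavy fraction to lysate below 1. Within a lysate it was thus below 1 in 6 of 6 lysates, from 0.229 to 0.766 with a median of 0.592. The fit gave a 1.84-fold lower level (log2 fold change −0.88, SE 0.227, adjusted p = 0.00146), and the call held in all 12 fits that left out 1 library. Within knockin mice alone the log2 fold change was −0.58 and did not pass (adjusted p = 0.120, range over alternatives 0.000240 to 0.120). The 3 lowest ratios, 0.229, 0.475 and 0.584, were those of the wild-type lysates.

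In the Acb Oprd1 held 10.6, 6.75 and 8.46 CPM in wild-type and 7.72, 7.96 and 6.99 CPM in knockin heavy fractions. The ratio within a lysate ranged from 0.647 to 1.61 and was below 1 in 1 of 6 lysates (log2 fold change 0.11, 95% interval −0.37 to 0.59, adjusted p = 0.783). A fit over all 24 libraries gave the difference between both fraction effects directly. It was 1.03 for Oprd1 on the log2 scale, Acb minus DS (SE 0.327, 95% interval 0.37 to 1.69), with an unadjusted p of 0.00283 and an adjusted p of 0.101. None of the 6 receptors passed this test in edgeR, where 1.09% of all genes tested did, and Oprd1 was 1 of 6 at an unadjusted p under 0.05, where 15.5% of all genes were. DESeq2 called 0 of 6 as well, and 504 of 17365 genes tested. With libraries of the same lysate taken as a block, the difference was 1.10 and the adjusted p 0.0518, in a range of 0.0518 to 0.9999 over all alternatives.

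Cnr1 was slightly over-represented in heavy fractions. Its ratio within a lysate was above 1 in 6 of 6 Acb lysates, from 1.05 to 1.52 with a median of 1.20, and in the DS it ranged from 0.930 to 1.42 with 1 of 6 below 1. The fitted difference was 1.24-fold in the Acb (log2 fold change 0.31, SE 0.111, adjusted p = 0.0345) and 1.20-fold in the DS (0.26, SE 0.104, adjusted p = 0.0406). Acb heavy fractions and lysates did not overlap, so any pairing gives ratios above 1 there. Those of the DS overlapped. With the lysate as a block the Acb difference was no longer called (log2 fold change 0.31, adjusted p = 0.0560).

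Both calls of Cnr1 were narrow. With scaling to library totals without Bc1 the log2 fold change was 0.24 in the Acb (adjusted p = 0.113) and 0.18 in the DS (adjusted p = 0.185), and the share of Bc1 differs between both kinds of RNA as given above. The ranges over all alternatives were 0.00217 to 0.298 in the Acb and 1.52e-06 to 0.242 in the DS. In the Acb the call was lost without lysate wild-type replicate 1 (adjusted p = 0.0513) or 3 (0.0929), lysate knockin replicate 3 (0.0872), heavy wild-type replicate 2 (0.0587) or 3 (0.0700), or heavy knockin replicate 2 (0.0916). In the DS it was lost without lysate wild-type replicate 2 (0.0988) or 3 (0.0595), lysate knockin replicate 1 (0.105) or 3 (0.119), heavy wild-type replicate 3 (0.148), or heavy knockin replicate 2 (0.177).

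For Oprk1 and Oprl1 heavy fractions and lysates stood at like levels. Oprk1 had a log2 fold change of 0.03 in the Acb (95% interval −0.25 to 0.31) and 0.06 in the DS (−0.24 to 0.36), and Oprl1 of 0.08 (−0.24 to 0.40) and 0.05 (−0.27 to 0.37). These intervals leave room for differences of up to 0.40 on the log2 scale. For Oprm1 and Drd3 the intervals were wider, from −2.61 to 0.56 and from −1.04 to 1.22 in the Acb, and from −4.01 to 0.996 and from −3.92 to 3.78 in the DS.

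**Figure D3:**
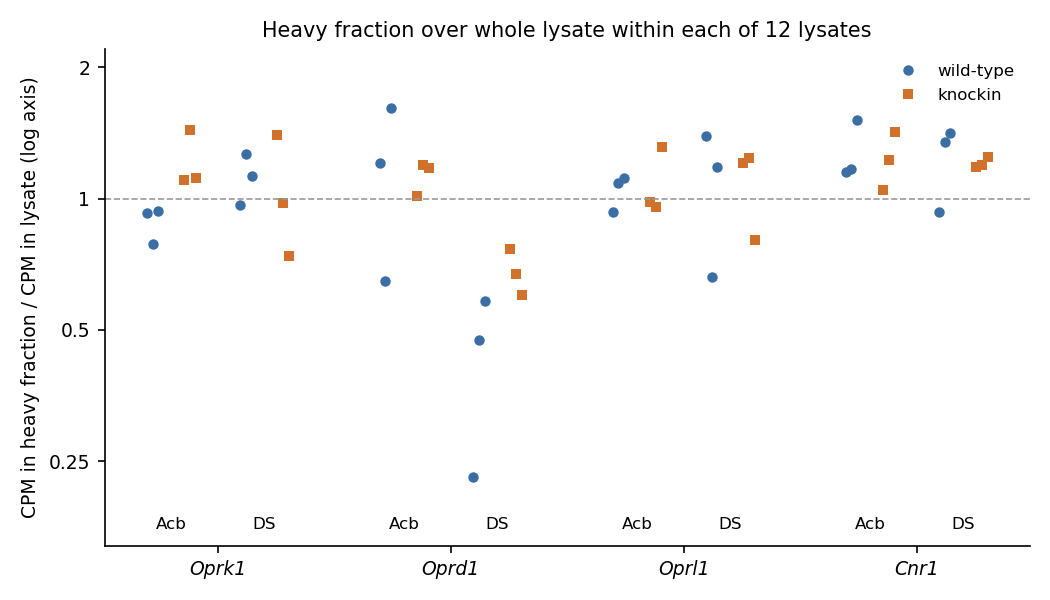
Ratio of CPM in the heavy fraction to CPM in the whole lysate (log axis) within each of the 12 lysates for the 4 better-counted receptor genes, by region, with wild-type lysates as circles and knockin lysates as squares. Each lysate here is a pair of libraries of the same number. The 6 DS lysates lay below 1 for Oprd1 (0.229 to 0.766), and the 6 Acb lysates lay above 1 for Cnr1 (1.05 to 1.52). In both cases heavy fractions and lysates did not overlap, so any pairing gives the same side of 1.

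The third comparison, the one the study was built around, set rpS6 knockin mice against wild-type littermates in each region and kind of RNA, 3 libraries against 3. None of the 6 receptors passed in any of these 4 comparisons by edgeR, and none by DESeq2. Over all genes edgeR called 0.0% in Acb heavy fractions, 0.0065% in Acb lysates, 0.044% in DS heavy fractions and 0.122% in DS lysates. DESeq2 called 1090 of 16227 genes in Acb heavy fractions and 1 of 15393 in Acb lysates. In the DS it called 17 of 15896 in heavy fractions and 95 of 15601 in lysates. At an unadjusted p under 0.05 there was 1 of 6 receptors in DS heavy fractions, where 6.42% of all genes were, 1 of 6 in DS lysates, where 9.07% were, and 0 of 6 in either kind of Acb RNA, where 21.7% of heavy fraction and 2.96% of lysate genes were.

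Those 2 values were the following. Oprd1 in DS heavy fractions had 6.17 ± 2.71 CPM in wild-type and 10.2 ± 2.41 CPM in knockin mice, with overlapping libraries (log2 fold change 0.75, 95% interval 0.01 to 1.503, unadjusted p = 0.0481, adjusted p = 0.772). Cnr1 in DS lysates had 292 ± 24.5 CPM in wild-type and 352 ± 66.1 CPM in knockin mice, again overlapping (log2 fold change 0.25, 95% interval 0.04 to 0.46, unadjusted p = 0.0191, adjusted p = 0.426). Cnr1 in DS heavy fractions had 356 ± 60.8 and 424 ± 75.6 CPM (log2 fold change 0.30, interval −0.05 to 0.66, adjusted p = 0.811). In the Acb the Cnr1 values were −0.04 in lysates (interval −0.34 to 0.26) and −0.09 in heavy fractions (−0.40 to 0.23).

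Oprk1 was the receptor gene whose genotypes did not overlap, in both kinds of Acb RNA and in opposite directions. In Acb lysates the knockin libraries held 35.2 ± 5.14 CPM and the wild-type libraries 43.2 ± 7.12 CPM, and the highest knockin and the lowest wild-type library were both at 38.6 CPM when rounded. In Acb heavy fractions the knockin libraries held 41.6, 42.1 and 42.9 CPM and the wild-type libraries 36.6, 40.4 and 36.1 CPM. The log2 fold changes were −0.29 (95% interval −0.70 to 0.11) and 0.17 (−0.18 to 0.51), neither called, and 8.33% of all genes in Acb lysates and 24.5% in Acb heavy fractions did not overlap. No receptor was free of overlap in the DS, where 11.6% of genes in heavy fractions and 13.7% in lysates were. The test of the difference between both effects gave 0.46 on the log2 scale (interval −0.07 to 0.99, unadjusted p = 0.0884, adjusted p = 0.487).

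**Figure D4:**
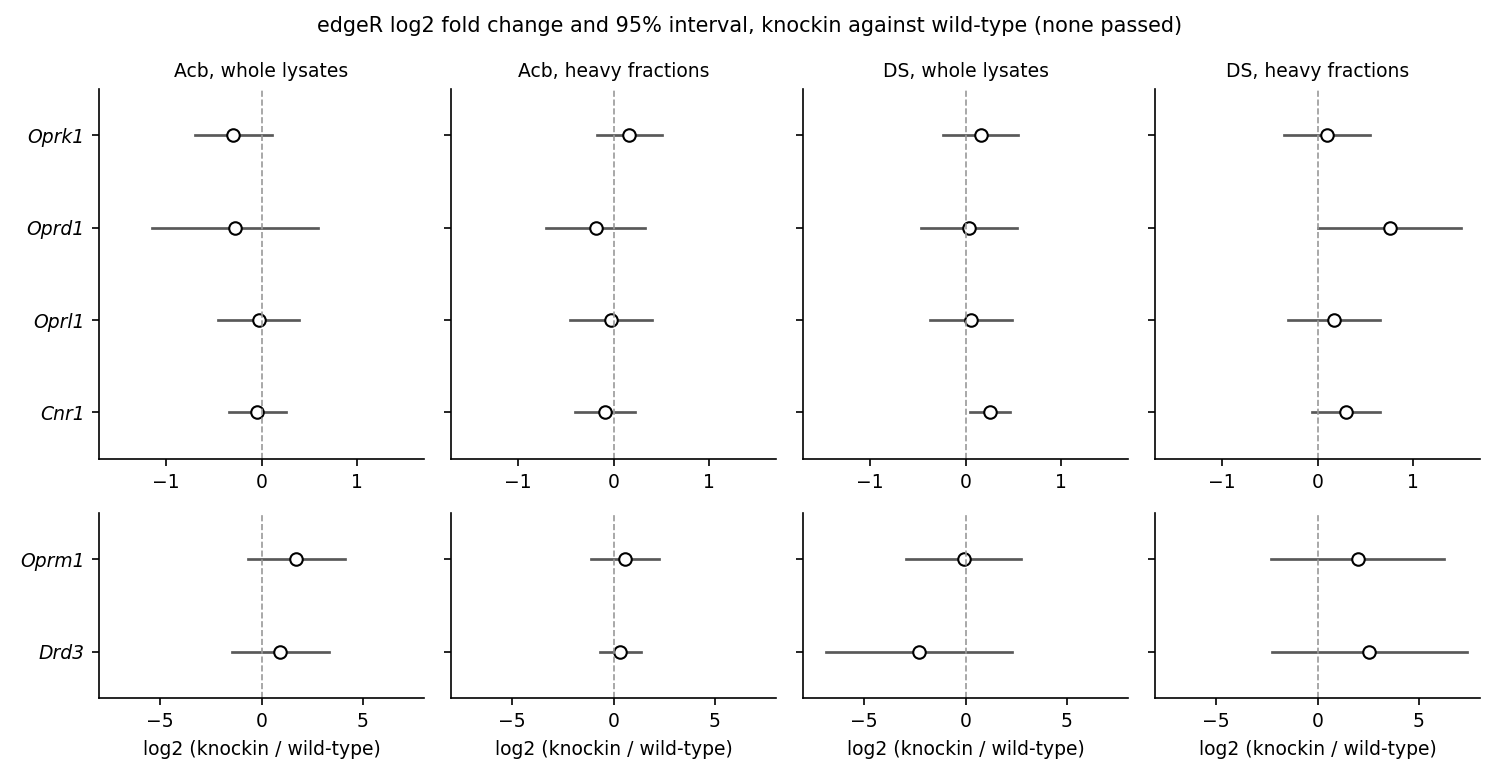
Log2 fold changes of knockin over wild-type (points) with 95% intervals (lines) for the 6 receptor genes in the 4 sets of 6 libraries, on a narrower axis for the 4 better-counted genes and a wider axis for Oprm1 and Drd3. The intervals of Oprd1 in DS heavy fractions (0.01 to 1.503) and Cnr1 in DS lysates (0.04 to 0.46) lay above 0 before adjustment, and no gene passed after it.

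The precision differed between the receptors. For Cnr1 the 95% intervals of the 4 genotype effects lay within −0.40 to 0.66 on the log2 scale, for Oprl1 within −0.46 to 0.66 and for Oprk1 within −0.70 to 0.55. For Oprd1 they lay within −1.15 to 1.503. The Oprm1 and Drd3 libraries give no usable limit: in DS lysates the Drd3 comparison rested on 6, 18 and 0 reads against 0, 0 and 5.

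Whether the genotype effect differed between heavy fraction and lysate, the measure of a change in translation, was tested with an interaction term in each region, and whether it differed between Acb and DS with one in each kind of RNA. None of the 6 receptors passed any of these 4 tests by edgeR or by DESeq2, and 0 of 6 had an unadjusted p under 0.05 in any. Of all genes 11.9% in the Acb and 4.9% in the DS had one for genotype by fraction, and 13.8% in heavy fractions and 5.11% in lysates for genotype by region. Over all genes the shares called by edgeR were 0.0% for genotype by fraction in either region, 0.00592% for genotype by region in heavy fractions and 0.00611% in lysates. DESeq2 called 0 of 16687 and 0 of 16544 genes for genotype by fraction in the Acb and the DS. For genotype by region it called 236 of 16880 in heavy fractions and 0 of 16364 in lysates. For Oprd1 the genotype effect on the heavy fraction minus that on the lysate was 0.68 in the DS (95% interval −0.21 to 1.57, adjusted p = 1.0) and 0.09 in the Acb (−0.89 to 1.08). Its genotype effect in heavy fractions was 0.92 lower in the Acb than in the DS (log2 difference −0.92, interval −1.87 to 0.03, unadjusted p = 0.0568, adjusted p = 0.376). For Cnr1 the values by fraction were 0.02 in the DS (−0.40 to 0.43) and −0.05 in the Acb (−0.49 to 0.39). By edgeR the ligand, Gi signalling and other receptor lists had 0 members called in all 8 tests that involve genotype. For genotype in Acb heavy fractions and genotype by fraction edgeR called no gene, which fixed that count. DESeq2 counts of the lists are not given here. Log2 fold changes for genotype in Acb heavy fractions were 0.17 for Penk, 0.58 for Pdyn, 0.02 for Pnoc and −0.32 for Drd2. Pdyn had an SE of 0.196 and an edgeR adjusted p of 0.131. It held 353, 354 and 465 CPM in knockin and 207, 352 and 225 CPM in wild-type libraries.

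The genes whose log2 CPM ran most like each receptor over the 24 libraries were listed for the 4 genes with at least 50 reads on average, among 11979 genes. Cnr1 ran with Atrnl1, 3110035E14Rik and Fam212b (Pearson r = 0.95 each). Oprl1 ran with Htr4 (0.91), Gpr149 (0.90) and Dpp10 (0.87), Oprk1 with Serpina9 (0.84), Hnrnph3 (0.83) and Ptprr (0.83), and Oprd1 with Kcnt2 (0.83), Cadm2 (0.80) and Atad2b (0.78). The 24 libraries fall into 4 sets by region and kind of RNA, and the values, which were not computed within sets, are given as a description.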

How the data were processed

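The deposited table holds raw counts per gene, which the authors made from single-end 50-base reads of stranded poly(A) libraries with CASAVA 1.8.2, TopHat2 2.0.13, Bowtie2 2.2.3, mm10 and HTSeq 0.6.1p1 (versions from the submitters' processing notes), counting by strand over all exons of UCSC gene models. Counts lose splice forms and reads that map to several places. Each library pools several mice, so p-values measure the spread between pools, with 3 pools per group. Fits by region or fraction join groups of both genotypes. The main fits took heavy fraction and lysate libraries as unpaired.

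Genes with at least 15 reads summed over the libraries compared were tested with edgeR 4.0.16 in R 4.3.3 (TMM, glmQLFit and glmQLFTest, two-sided), with Benjamini-Hochberg adjustment over all genes tested and a threshold of 0.05. Standard errors are the log2 fold change over the square root of F, and 95% intervals use the fit's total degrees of freedom. CPM uses TMM over all 24 libraries. Depth limits precision: at 9280589 to 34703044 reads per library, Oprm1 and Drd3 have few reads. DESeq2 1.42.0, other scalings and filters, a length trend, single genotypes, each library left out, and replicate blocks were tried as alternatives. The scripts were tested on simulated data.

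Heavy fraction and lysate libraries of the same number were taken as a pair, since the protocol drew both kinds of RNA from a lysate. The methods combine heavy fractions from separate samples in each replicate. Whether the lysate library pools the same samples is not stated, so the pairing is assumed. The correlation between paired libraries of their deviations from group means was −0.0376 to 0.0743, above 0.1 in 0 of 12 pairs. Oprk1 has no promoter entry in the RefSeq table, and no promoter was used.

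The receptors and the gene lists were chosen with earlier results of these data known. All 6 receptors are named throughout. Ligand, Gi signalling and other receptor genes are named if called with at least 50 reads on average, at most 3 per direction by size. A further marker gene is not reported here. Penk, Pdyn, Pnoc and Drd2 were to be named whatever their result, but of the tests that involve genotype their values are given for Acb heavy fractions only.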

Additional observations from a re-analysis of the deposited data

How the results depend on the processing

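Of the receptor results called, 75 kept their call and direction and 19 lost the call over the alternatives other than leaving out a library. Of those not called, 442 stayed uncalled in the same direction, 1 became called and 32 turned direction while uncalled, most of them near 0. The count of receptors called did not leave 0 in any of the 8 comparisons that involve genotype or in fraction by region. In Acb against DS it was 4 in lysates, 5 with the DESeq2 test and 3 within either genotype alone. In heavy fractions it was 4, and 3 with a replicate block or the length trend removed and 2 within either genotype alone. In heavy fraction against lysate it was 1 in the Acb and 0 with DESeq2 size factors, a replicate block, either genotype alone or totals without Bc1. In the DS it was 2, and 1 with DESeq2 size factors, the DESeq2 test, wild-type mice alone or totals without Bc1, and 0 with knockin mice alone. Fewer libraries enter the fits of 1 genotype; the cause of the other losses was not tested. With summed exons as the length, 2 of 6 receptors kept their rank per kilobase in DS lysates.

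Over all genes DESeq2 called more than edgeR in some comparisons: 1090 against 0 for genotype in Acb heavy fractions, 17 against 7 in DS heavy fractions, 95 against 19 in DS lysates, 236 against 1 for genotype by region in heavy fractions and 504 against 190 for fraction by region. For genotype by region in lysates it called 0 against 1.

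Leaving out 1 library gave 3 to 4 receptors called by region in lysates, 2 to 4 in heavy fractions, 0 to 1 by fraction in the Acb and 1 to 2 in the DS.

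The directions that turned were in fits that did not pass. For fraction by region, knockin mice alone gave −1.01 for Oprm1, −2.43 for Drd3 and 0.28 for Oprk1. There a trend on transcript length removed gave −0.068 for Oprl1 and −0.14 for Cnr1, the replicate block 0.0091 for Oprk1, and both together −0.060 for Oprl1 and −0.14 for Cnr1. For fraction in the Acb, Oprk1 gave −0.0015 with DESeq2, −0.00089 with its size factors, −0.036 with totals without Bc1 and −0.20 in wild-type mice. Drd3 there gave −0.21 in knockin mice, −0.24 with the trend and −0.037 with block and trend, and Oprl1 −0.085 with the trend and −0.081 with both. For fraction in the DS, Oprk1 gave −0.020 both in knockin mice and without Bc1. Drd3 there gave 2.23 in knockin mice and 0.12 with the replicate block, and Oprl1 −0.0095 with the trend, −0.035 without Bc1 and −0.014 with block and trend. Genotype by fraction gave 0.042 for Oprl1 with the block and −0.023 for Oprd1 with block and trend in the Acb, and −0.011 for Cnr1 with DESeq2 and with its size factors in the DS. Genotype alone gave 0.013 for Oprl1 in Acb heavy fractions with the block and 0.018 in Acb lysates with the trend. Oprd1 by region in heavy fractions gave −0.44 in knockin mice and −0.11 with the trend.

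Leaving out 1 library also turned uncalled directions, within these lowest and highest log2 values. For fraction by region they were Cnr1 −0.00995 to 0.16, Drd3 −0.69 to 0.94, Oprk1 −0.10 to 0.081, Oprl1 −0.13 to 0.15 and Oprm1 −0.18 to 1.94. For genotype by fraction in the Acb they were Cnr1 −0.16 to 0.046, Oprd1 −0.12 to 0.32 and Oprl1 −0.22 to 0.29. For genotype by fraction in the DS they were Cnr1 −0.15 to 0.18, Oprk1 −0.22 to 0.087, Oprl1 −0.093 to 0.19 and Oprm1 −0.66 to 6.43. For genotype in Acb lysates they were Cnr1 −0.14 to 0.062 and Oprl1 −0.20 to 0.19. For fraction in the Acb they were Drd3 −0.16 to 0.33, Oprk1 −0.047 to 0.12 and Oprl1 −0.053 to 0.17. For fraction in the DS they were Drd3 −0.80 to 0.85 and Oprl1 −0.021 to 0.13. For genotype in Acb heavy fractions they were Oprd1 −0.33 to 0.00039 and Oprl1 −0.17 to 0.26. For genotype in DS lysates they were Oprd1 −0.055 to 0.16, Oprl1 −0.045 to 0.24 and Oprm1 −1.98 to 0.80. For region in heavy fractions they were Oprd1 −0.15 to 0.12. For genotype by region in heavy fractions they were Oprk1 −0.14 to 0.19, Oprl1 −0.34 to 0.087 and Oprm1 −6.23 to 1.36. For genotype in DS heavy fractions they were Oprk1 −0.0044 to 0.28. For genotype by region in lysates they were Oprl1 −0.28 to 0.13. For region in lysates they were Oprm1 −0.022 to 1.47.

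Replicate numbers across regions or genotypes are only shared numbers (correlations of deviations −0.256 to 0.217 and −0.295 to 0.320). With them as a replicate block, Oprk1 in heavy fractions by region was no longer called (adjusted p = 0.0590, range over alternatives 0.0158 to 0.223). Apart from that and Cnr1 by fraction in the Acb, the block changed no call.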

Other observations

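Ligand and signalling partners of the receptors were also compared between heavy fractions and lysates, in the same fits. Penk was 1.78-fold higher in heavy fractions of the Acb and 1.79-fold higher in those of the DS (adjusted p under 0.05 by edgeR in both), and Abhd4, an enzyme on a route to anandamide, was 1.56-fold higher in both regions. Pdyn rose 1.28-fold in Acb heavy fractions and had a log2 fold change of 0.09 in the DS, which did not pass. Pnoc and Drd2 passed in neither region. Of 24 Gi signalling genes, 10 were higher and 2 lower in heavy fractions of the Acb, and 8 higher and 3 lower in those of the DS. The list's median log2 fold change was 0.30 in the Acb and 0.09 in the DS, beside 0.04 and 0.03 over all genes tested, of which 29.8% and 37.0% were called. Cnrip1, which encodes a protein that binds the tail of CB1, was 1.49-fold higher in the Acb and 1.75-fold higher in the DS, in the same direction as Cnr1. Grk5, a kinase that phosphorylates active receptors, was 1.81-fold and 2.35-fold lower, and Rgs9, a regulator enriched in medium spiny neurons, 1.74-fold and 1.57-fold lower.

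Reads of Oprm1 varied among libraries of a group far beyond counting error. In wild-type Acb lysates, where it had 49, 0 and 0 reads, the variance was 49.0 times the mean, and in knockin DS heavy fractions, with 3, 46 and 0, it was 40.6 times the mean. Other genes of low count showed it too: among those with 10 to 30 reads on average in a group, 5.39% to 26.4% had 1 library at 0 and another at 20 or more. Intervals from counting error alone are too narrow for such genes.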
